A study of Mus musculus with 5 samples.

Results

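The cytosolic ribosomal protein genes encode the protein parts of the ribosome of the cell body, as opposed to that of the mitochondrion. They were chosen by symbol, as every symbol that begins with Rpl or Rps and goes on with a number and at most 1 letter and 1 more digit, together with Rpsa, Rplp0, Rplp1 and Rplp2. The rule took 89 of the 55291 gene symbols in the count files, 36 of the small (Rps) and 53 of the large (Rpl) subunit. By the GENCODE M21 annotation 6 of them are pseudogenes (Rpl32l, Rpl6l, Rps12l1, Rps3a2, Rps3a3 and Rps4l) and the others are protein-coding. Of the protein-coding genes, 6 were set apart as paralogues by a list of pairs fixed here (Rpl22l1, Rpl3l, Rpl7l1, Rpl39l, Rpl10l and Rps27l). The remaining 77 are called the core genes.

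RNA from mouse bone marrow cells labelled as monocytes was sequenced in 3 wild-type libraries (replicates 1, 2 and 3) and in 2 libraries of the Tet2 mutant genotype (replicates 2 and 3, with titles that begin with HR). Tet2 is an enzyme that oxidises methylated cytosine in DNA. The strain, age and sex of the mice, the kind of Tet2 mutation, any treatment, the way the cells were isolated and the meaning of HR were not stated in the sources used here. Since no label ties the samples to separate animals, p-values here measure only how far these samples spread, and that spread may be technical.

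Each ribosome has a small subunit, which reads the messenger RNA, and a large subunit, which joins amino acids and holds the exit tunnel of the new protein. Almost every core protein is present in 1 copy per ribosome, and their messenger RNAs begin with a run of pyrimidines at the 5′ end (a TOP motif) through which mTOR signalling and Larp1 set their translation together. In the marrow, loss of 1 gene copy of several of these proteins causes Diamond-Blackfan anaemia, and loss of RPS14 contributes to the myelodysplastic syndrome with a deletion of chromosome arm 5q.

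The libraries held 17459808 counts in Tet2-mutant replicate 2 and between 53789308 and 72414875 in the other 4. Genes with any count numbered 24532, 25612 and 26207 in wild-type replicates 1, 2 and 3, against 18047 and 17944 in Tet2-mutant replicates 2 and 3. Fewer genes were thus detected in both mutant libraries, also in replicate 3 with its 60508381 counts. The part of this in the results was not tested. Levels are CPM, the counts of a gene scaled to a common library total, on library sizes adjusted by edgeR's TMM, with factors of 1.14 to 1.17 in the wild type and 0.723 and 0.896 in the mutant. Of 17062 tested genes, edgeR's quasi-likelihood test with Benjamini-Hochberg adjustment called 2556 at an adjusted p under 0.05, which is 15%. Tet2 itself had 11.9, 9.77 and 10.6 CPM in the wild type against 5.31 and 15.6 CPM in the mutant, so the groups overlapped (log2 fold change -0.04, adjusted p = 0.966), and with the kind of mutation not given this level does not check the labels. The 6 monocyte markers summed to 1099, 1128 and 1209 CPM in the wild type against 1946 and 900.2 CPM in the mutant. Though these sums overlapped, 2 of the 6 were called higher, where 10.6% of all tested genes were. The log2 fold change was positive for 4 of the 6, with a median of 1.06. The 9 neutrophil markers, at 45574 to 56471 CPM in the wild type and 51798 and 22928 CPM in the mutant, stood far above the monocyte markers in all 5 libraries. Of these 9, 0 were called and 1 had a positive log2 fold change, with a median of -0.88. Both mutant libraries were below all wild-type libraries for 5 of them, against 33.3% of all tested genes. In bulk RNA, fewer cells of a type and less RNA per cell cannot be told apart.

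Transcripts of the ribosomal protein genes were higher in the mutant libraries on the TMM scale. Summed over all members, wild-type replicates 1, 2 and 3 held 5357, 8143 and 7735 CPM, whereas Tet2-mutant replicates 2 and 3 held 12479.5 and 11958 CPM, with means of 7078 ± 1504 (SD, n = 3) and 12219 ± 369 (SD, n = 2). Both mutant libraries lay above all 3 wild-type libraries, and wild-type replicate 1 was the lowest. As a share of all gene counts, with no scaling, the same genes took 0.625%, 0.943% and 0.881% in the wild type and 0.902% and 1.07% in the mutant. On that scale the groups overlapped, because Tet2-mutant replicate 2 lay below wild-type replicate 2, and the log2 ratio of the means was 0.27. Leaving out wild-type replicate 1 gave 0.11, and leaving out Tet2-mutant replicate 3 gave 0.14.

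**Figure D1:**
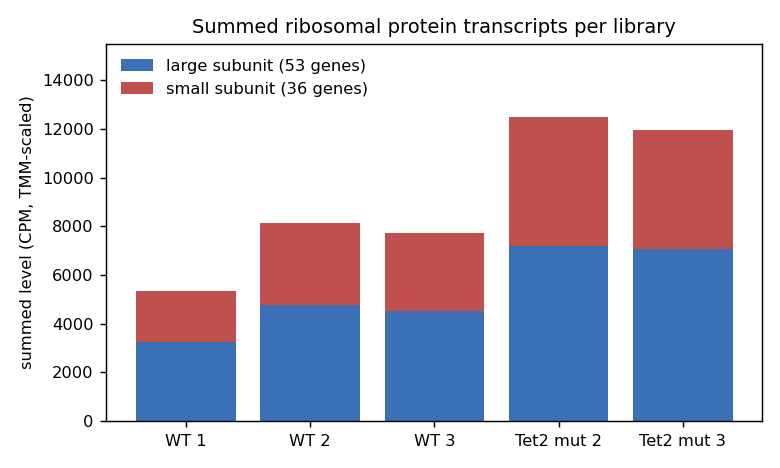
Summed level (CPM, TMM-scaled) of the 89 ribosomal protein genes in each library, with the large subunit in blue and the small subunit in red. The wild-type bars reach 5357, 8143 and 7735 CPM and the Tet2-mutant bars 12479.5 and 11958 CPM.

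Of the 89 genes, 86 passed the filter on low counts and 3 (Rpl10l, Rpl39l and Rps12l1) did not. The test called 14 of the 86 higher (16.3%), where 10.6% of all tested genes were called higher. It called 0 lower, where 4.43% of all tested genes were called lower, and 35 had an unadjusted p under 0.05. Taken over both directions, the 16.3% called lies close to the 15% of all genes. Both mutant libraries were above all 3 wild-type libraries for 50 of the 86, against 22.9% of all tested genes. Both were below all 3 for 4 (Rpl39, Rpl32l, Rpl3l and Rpl6l), against 33.3% of all tested genes. The median log2 fold change was 0.69 over the 86 genes and -0.07 over all tested genes.

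The number of calls moved with single libraries. It was 4 without wild-type replicate 1, and 7 without wild-type replicate 2 or without wild-type replicate 3, where 3.85%, 5.52% and 5.17% of all genes were called. It was 28 without Tet2-mutant replicate 2 and 37 without Tet2-mutant replicate 3, where 58.7% and 39.4% of all genes were called and the lone mutant library was assumed to vary like the others. The scaling moved it as well. With library totals only, 5 of the genes were called higher and 1 lower, beside 1181 higher and 2877 lower calls over all genes, and the median of the members fell to 0.19 while that of all genes fell to -0.58. On that scale the log2 fold change of 21 of the 86 members turned from positive to negative, Rplp0, Rplp1 and Rpl5 among them. With upper-quartile scaling 10 were called higher and 1 lower, beside 1419 higher and 1837 lower over all genes, with medians of 0.42 and -0.35, and 10 members turned from positive to negative. The distance between the median of the members and that of all genes was 0.76 to 0.77 under all 5 scalings. A change of scaling shifts nearly all genes alike, so this distance could hardly move and does not measure how stable the result is. With 1 library left out it ranged from 0.51 (without wild-type replicate 1) to 1.15 (without Tet2-mutant replicate 3), and with no filter it was 2.06.

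**Figure D2:**
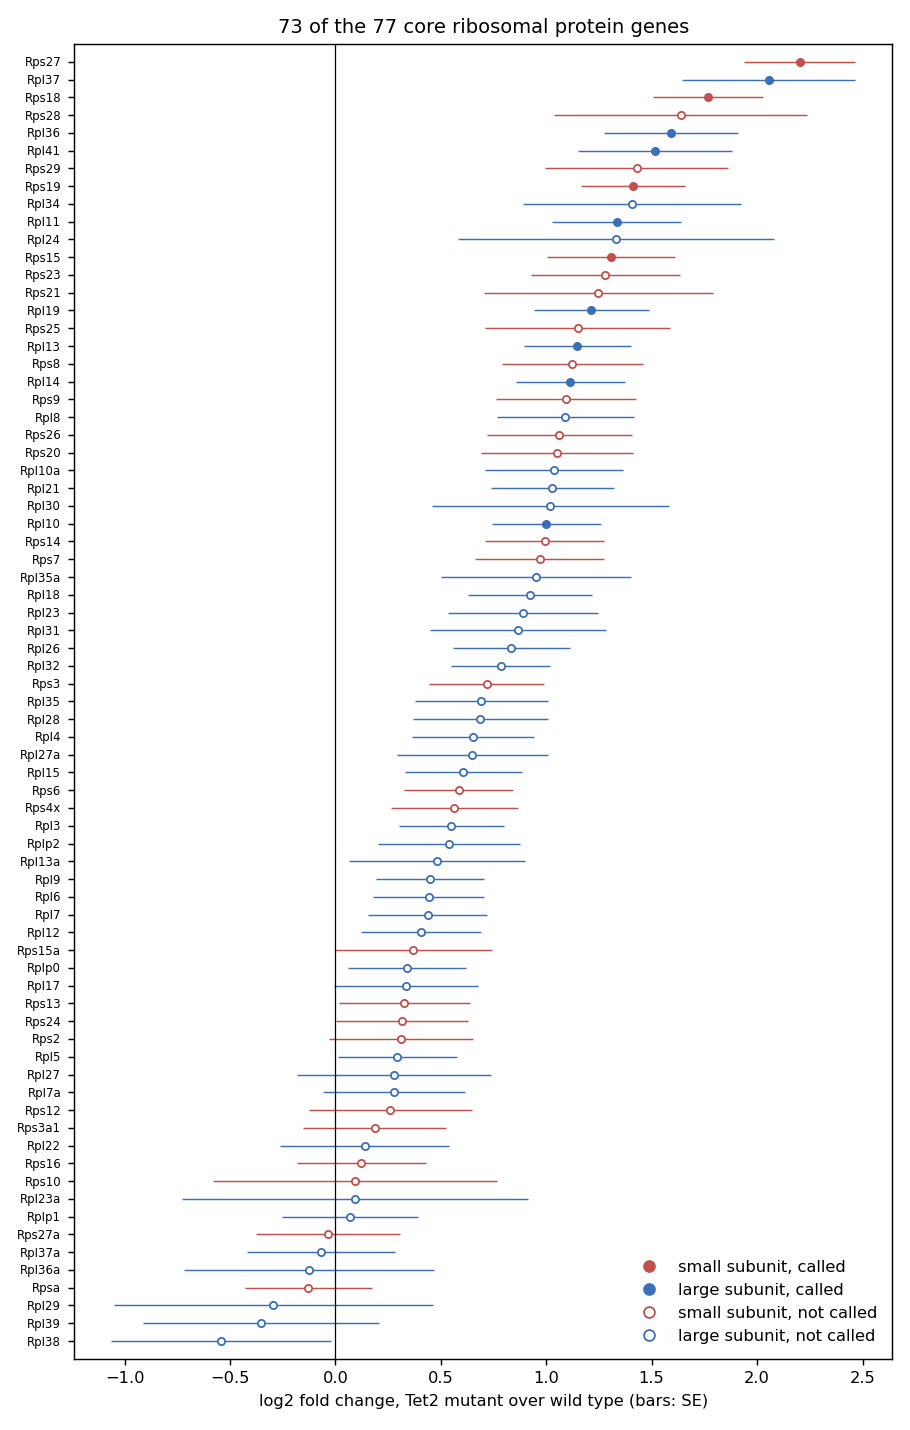
Log2 fold change (Tet2 mutant over wild type, bars show the SE) of 73 of the 77 core genes in descending order, small subunit in red and large subunit in blue, with filled points for called genes. Rps27 is at the top with 2.20 and Rpl38 at the bottom with -0.54, and 66 of the 73 points lie to the right of 0 under TMM scaling, while with library totals only 21 of the 86 tested members turned negative.

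In the small subunit 5 of 35 tested genes were called higher (14.3%, beside 10.6% of all tested genes), among them Rps27, Rps18, Rps19 and Rps15. Rps27, a zinc-binding protein of the small subunit (chromosome 3, 90212522 to 90213651, minus strand, GRCm38), had 23.8, 27.0 and 24.7 CPM in the wild type against 129.7 and 102 CPM in the mutant. Its mean went from 25.2 ± 1.62 (SD, n = 3) in the wild type to 116 ± 19.6 (SD, n = 2) in the mutant. Among all members it had the largest log2 fold change, 2.20 ± 0.26 (SE) (edgeR's quasi-likelihood test, adjusted p = 0.00419). The groups did not overlap, and the wild-type libraries lay close together. Rps18, a protein of the head of the small subunit (chromosome 17, 33951999 to 33956001, minus strand), had 73.5, 92.2 and 89.5 CPM in the wild type against 339.7 and 239 CPM in the mutant (log2 fold change 1.77 ± 0.26, adjusted p = 0.00897). Rps19, the protein most often mutated in Diamond-Blackfan anaemia (chromosome 7, 24884371 to 24889806, plus strand), was at 74.5, 104 and 96.6 CPM against 239 and 249 CPM (1.41 ± 0.25, adjusted p = 0.0159), so its mutant libraries nearly coincided.

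Rps15, which is needed for export of the small subunit precursor from the nucleus (chromosome 10, 80292453 to 80294114, plus strand), had 43.4, 71.1 and 71.0 CPM in the wild type against 173 and 134 CPM in the mutant (log2 fold change 1.31 ± 0.30, adjusted p = 0.0359). Wild-type replicate 1 was its lowest library and the groups did not overlap.

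In the large subunit 9 of 51 tested genes were called higher (17.6%, beside 10.6% of all tested genes). Rpl37, a zinc-binding protein (chromosome 15, 5116645 to 5119140, plus strand), had 23.1, 23.9 and 24.5 CPM in the wild type against 143 and 55.1 CPM in the mutant (log2 fold change 2.05 ± 0.41, adjusted p = 0.0242). Its wild-type libraries had an SD of 0.693 CPM, while the mutant libraries lay far apart, with an SD of 62.3 CPM. Rpl36 (chromosome 17, 56613416 to 56614243, plus strand) was at 15.8, 18.7 and 20.1 CPM against 46.4 and 63.2 CPM (1.59 ± 0.32, adjusted p = 0.0242).

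Rpl11, which together with Rpl5 can bind Mdm2 and stabilise p53 when ribosome assembly fails (chromosome 4, 136028265 to 136053428, minus strand), had 22.8, 29.5 and 29.0 CPM in the wild type against 79.8 and 56.9 CPM in the mutant (log2 fold change 1.33 ± 0.31, adjusted p = 0.0353). Its partner Rpl5 was at 53.3, 75.7 and 79.4 CPM against 78.3 and 92.1 CPM, and its groups overlapped (0.29 ± 0.28, adjusted p = 0.449, and -0.20 with library totals only). Cdkn1a, a p53 target that halts the cell cycle, is no member and was at 11.9, 13.9 and 18.3 CPM against 101 and 47.6 CPM (2.33 ± 0.41, adjusted p = 0.0159). Rpl11 was thus called and Rpl5 was not, and the difference between them was not tested.

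Rpl13 (chromosome 8, 123102350 to 123105244, plus strand) had 149, 208 and 193 CPM in the wild type against 365 and 447 CPM in the mutant (log2 fold change 1.15 ± 0.25, adjusted p = 0.0326). Rpl19, which reaches across to the small subunit (chromosome 11, 98026710 to 98030492, plus strand), was at 60.7, 83.1 and 82.3 CPM against 203 and 147 CPM (1.21 ± 0.27, adjusted p = 0.0331). Rpl14 (chromosome 9, 120571444 to 120574654, plus strand) was at 92.7, 138 and 130.5 CPM against 265 and 257 CPM (1.11 ± 0.26, adjusted p = 0.0361). In all 3 of these genes the mutant libraries were above every wild-type library and wild-type replicate 1 was the lowest. Rpl41, whose product is a very short basic peptide (chromosome 10, 128548114 to 128549305, minus strand), was at 40.4, 64.1 and 65.8 CPM against 215 and 109 CPM (1.52 ± 0.37, adjusted p = 0.0393). Rpl10, one of the last proteins to join the large subunit (chromosome X, 74270812 to 74273135, plus strand), was at 76.6, 106 and 111 CPM against 179 and 212 CPM (1.0 ± 0.26, adjusted p = 0.0453).

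The calls differed in how many of the 13 alternative settings kept them. Rps27 and Rps18 were called in all 13, with adjusted p at most 0.0212 and 0.024. Rps19 and Rpl37 were called in 12, with adjusted p up to 0.0782 and 0.0716. The other called members named above were called in 6 (Rpl10) to 10 (Rpl41). Without wild-type replicate 1 Rps27, Rps18 and Rps19 stayed called, and the other called members named above did not. Without wild-type replicate 2 or 3 the calls of Rpl10, Rpl11, Rpl13, Rpl14, Rpl19 and Rpl36 were lost, and without replicate 3 that of Rps15 as well.

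To show the sequence at the start of these genes, windows from 40 bases before to 20 bases after the annotated start were read from RefSeq promoters (GRCm38.p6) for 3 called genes and for 2 paralogues that are described further on (for Rps27l, the first of its 2 annotated starts). They are written 5′ to 3′ on the strand of the gene, with the annotated start after the first 40 bases. Capitals mark the longest run of pyrimidines that reaches to within 10 bases of the start, and that of Rps27l ends before it. The runs of the 3 called genes shown, of 9, 11 and 14 bases, do not stand for all called genes. The run was 3 bases in Rpl10, Rpl11, Rpl41 and Rps15, 6 in Rpl37 and 10 in Rpl13. Over several annotated starts it was 4 to 7 in Rps19, and 5 and 11 in Rpl19.
Rps27, chr3:90213629-90213688, minus strand: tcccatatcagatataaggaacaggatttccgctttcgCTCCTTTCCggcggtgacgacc
Rps18, chr17:33955646-33955705, minus strand: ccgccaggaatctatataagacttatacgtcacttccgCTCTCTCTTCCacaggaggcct
Rpl14, chr9:120571477-120571536, plus strand: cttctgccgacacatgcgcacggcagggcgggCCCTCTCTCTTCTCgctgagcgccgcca
Rpl22l1, chr3:28805468-28805527, plus strand: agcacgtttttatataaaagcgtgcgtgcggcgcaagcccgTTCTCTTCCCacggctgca
Rps27l, chr9:66946046-66946105, plus strand: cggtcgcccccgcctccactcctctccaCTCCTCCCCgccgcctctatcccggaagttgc
The promoter table held 57 of the 77 core genes and 11 of the 14 called ones. An annotated start at C that opens a run of at least 5 pyrimidines was found in 13 of the 57 (22.8%) and in 3.01% of all 27025 genes in the table.

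Motifs were searched as exact letters on both strands from 50 bases before to 50 bases after the start. The pyrimidine motif CTTTCC, which can lie within the run at the start, was found in 19 of the 57 core genes (33.3%) and in 10.3% of all genes in the table, and 3 of the 11 called genes held it. The ETS motif CCGGAAG was found in 13 core genes (22.8%) and in 5.98% of all genes. AAGATGG, the core of the YY1 motif, was in 5 (8.77%) against 3.07%, and the E-box CACGTG bound by Myc and Max was in 2 (3.51%) against 3.39%. A match describes the letters and is neither a site nor a cause.

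Several of the most abundant members were not among those called. Rpl4, which lines the exit tunnel, had 495, 799 and 738 CPM in the wild type against 960.4 and 1168 CPM in the mutant (log2 fold change 0.65 ± 0.29, adjusted p = 0.139). Rps3, at the entry of the messenger RNA channel, was at 266, 384 and 394 CPM against 515 and 629 CPM (0.72 ± 0.27, adjusted p = 0.1). Rps9 was at 186, 324 and 297 CPM against 705 and 444 CPM (1.09 ± 0.33, adjusted p = 0.0631). Rps14, the gene lost in the syndrome named above, was at 156, 246 and 244 CPM against 464 and 394 CPM (0.99 ± 0.28, adjusted p = 0.0541). In these 4 genes the mutant libraries were above all wild-type libraries, but the differences did not pass the test.

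The acidic stalk of the large subunit, which recruits elongation factors, is built on Rplp0 with Rplp1 and Rplp2. Rplp0 had 471, 737 and 679 CPM in the wild type against 749 and 844 CPM in the mutant (log2 fold change 0.34 ± 0.28, adjusted p = 0.378), and with library totals only the sign turned, to -0.16. Rplp1 was at 40.4, 72.5 and 58.1 CPM against 60.7 and 58.9 CPM (0.07 ± 0.32, adjusted p = 0.886, and -0.44 with library totals only), and the mutant libraries lay inside the wild-type range. Rplp2 was at 38.3, 71.4 and 72.5 CPM against 91.0 and 85.3 CPM (0.54 ± 0.34, adjusted p = 0.259). None of these 3 was called.

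Levels between genes can be compared only per length, here as CPM per kilobase of the principal transcript, and the core proteins are present at about equal numbers in the ribosome. On that scale the core genes of the wild type ran from 2.81 (Rpl24) to 463 (Rplp0), with a median of 58.4. After Rplp0 came Rpl4 with 440.4 and then Rps9 and Rps14 with 323 each. In the mutant the median was 115, and Rpl4 (692), Rps9 (689.8) and Rps14 (643) stood above Rplp0 (586). Of the core genes, 76 of 77 shared at least 1 window of 50 bases with an annotated transcript of another gene, so that reads could be split between copies, dropped or given to another symbol. In Rps27 98.6% of windows were shared, in Rpl10 92.1%, in Rps18 86.7%, in Rpl36 81.1% and in Rpl37 31.3%, and how multi-mapping reads were counted was not stated in the sources used here. The 39 core genes with at least 50% of windows shared had a median log2 fold change of 0.56, and the other 38 had 0.91.

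Core genes lower in the mutant by the sign of the log2 fold change were Rpl38, Rpl39, Rpl29, Rpsa, Rpl36a, Rpl37a and Rps27a, 7 in all, and none was called. All of these but Rpl38 and Rpl39 turned positive without wild-type replicate 2 (0.18 to 0.36) and without Tet2-mutant replicate 2 (0.04 to 0.38). With library totals only, 21 further core genes turned negative, so the list depends on the scaling and on single libraries. Rpl38, which is known for its part in the translation of Hox messenger RNAs, had 11.3, 19.5 and 20.04 CPM in the wild type against 7.37 and 15.8 CPM in the mutant (-0.54 ± 0.52, adjusted p = 0.451). Rpl39, a small protein at the exit tunnel, was at 5.63, 7.71 and 7.03 CPM against 5.31 and 5.33 CPM (-0.35 ± 0.56, adjusted p = 0.656), and it was the only core gene with both mutant libraries below all wild-type libraries. Rpsa, also known as the laminin receptor, was at 147, 244 and 235 CPM against 167 and 215 CPM (-0.13, adjusted p = 0.768). The groups overlapped for Rpl38 and Rpsa.

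The subunits were compared by their sums and medians. Small subunit genes summed to 2132, 3384 and 3215 CPM in the wild type and to 5286 and 4903 CPM in the mutant, and large subunit genes to 3225, 4758 and 4520.0 CPM against 7193 and 7055 CPM. The ratio of small to large was 0.661, 0.711 and 0.711 in the wild type and 0.735 and 0.695 in the mutant, so the groups overlapped. Of 35 tested small subunit genes 5 were called higher (14.3%) and the median log2 fold change was 0.96. Of 51 large subunit genes 9 were (17.6%), with a median of 0.65, beside 10.6% of all tested genes. The difference of 0.31 between the medians fell to 0.09 without wild-type replicate 1 or 2 and to 0.12 without Tet2-mutant replicate 2. Without Tet2-mutant replicate 3 it was 0.15, and it has no test here. These groups include paralogues and pseudogenes. Among core genes alone, 5 of 31 of the small subunit were called higher (16.1%), with a median of 0.99. Of the large subunit 9 of 46 were (19.6%), with a median of 0.67.

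The core genes did not move by the same amount in the mutant libraries. Their level was higher in replicate 2 than in replicate 3 for 44 genes and the reverse for 33. At least 2-fold higher in replicate 2 were 12 genes, among them Rps28, Rpl30, Rps25, Rps21 and Rpl34. Rps28, a small protein near the exit channel of the messenger RNA, had 6.43, 8.30 and 8.59 CPM in the wild type against 38.6 and 9.93 CPM in the mutant (log2 fold change 1.64 ± 0.60, adjusted p = 0.0941). Rpl30 was at 16.7, 22.3 and 24.2 CPM against 68.8 and 16.9 CPM, and Rps25, which some viral messenger RNAs need for translation, at 39.4, 54.5 and 50.4 CPM against 158 and 55.2 CPM. In these genes replicate 2 was far above the wild type and replicate 3 lay at or near its range.

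At least 2-fold higher in Tet2-mutant replicate 3 were 6 genes, among them Rpl23a, Rpl29, Rps10, Rpl36a and Rpl38. Rps10 had 3.93, 6.82 and 6.68 CPM in the wild type against 3.33 and 9.01 CPM in the mutant, so that the mutant libraries fell on either side of the wild type. Rpl29 was at 23.8, 30.2 and 6.02 CPM against 7.84 and 24.6 CPM, and here wild-type replicate 3 and Tet2-mutant replicate 2 were the low libraries. Among the wild-type libraries, replicate 1 was the lowest for 75 of the 77 core genes, all but Rpl34 and Rpl29, while it was the lowest for 37.4% of all tested genes.

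**Figure D3:**
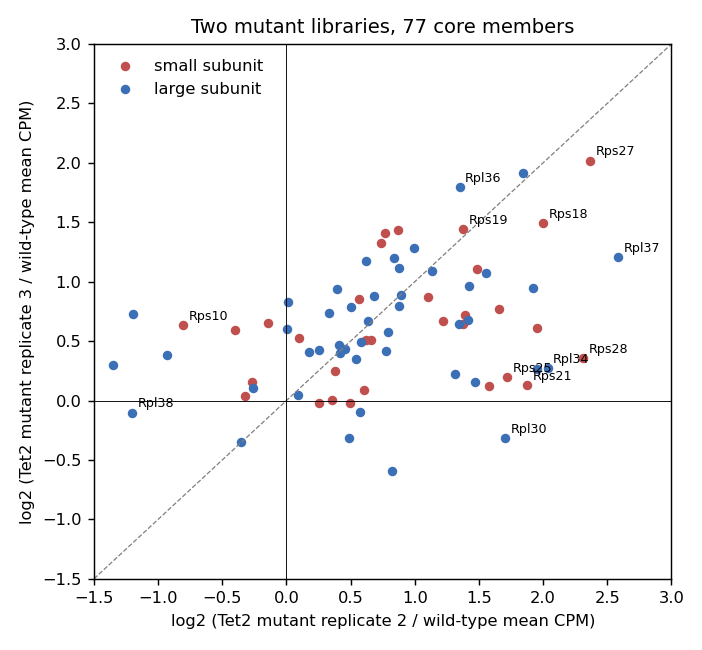
Log2 ratio to the wild-type mean CPM of the 77 core genes in Tet2-mutant replicate 2 (horizontal) and replicate 3 (vertical), which share that mean. The dashed line marks equal ratios: Rps27, Rps18 and Rps19 lie near it, while Rps28, Rpl34, Rpl30 and Rps25 lie far to its right.

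Short transcripts were higher in the mutant libraries across all genes, a comparison added after the values had been seen. Among other tested genes the median log2 fold change was 0.88 for principal transcripts under 1000 bases (1067 genes, 26.5% called higher), 0.53 for 1000 to under 2000 bases (3071 genes, 21.04%), -0.09 for 2000 to under 4000 bases (5545 genes, 8.8%) and -0.26 for 4000 bases or more (3764 genes, 5.77%). Of the core genes, 54 were under 1000 bases, and they had a median of 0.98 with 12 called higher (22.2%). A further 19 were of 1000 to under 2000 bases, with a median of 0.48 and 2 called higher (10.5%). The library medians of these short transcripts differed. In Tet2-mutant replicate 2 the median log2 ratio to the wild-type mean was 0.87 for core genes under 1000 bases and 0.51 for other genes of that length, and in replicate 3 it was 0.59 against 0.96. The part of transcript length in the result was not tested.

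**Figure D4:**
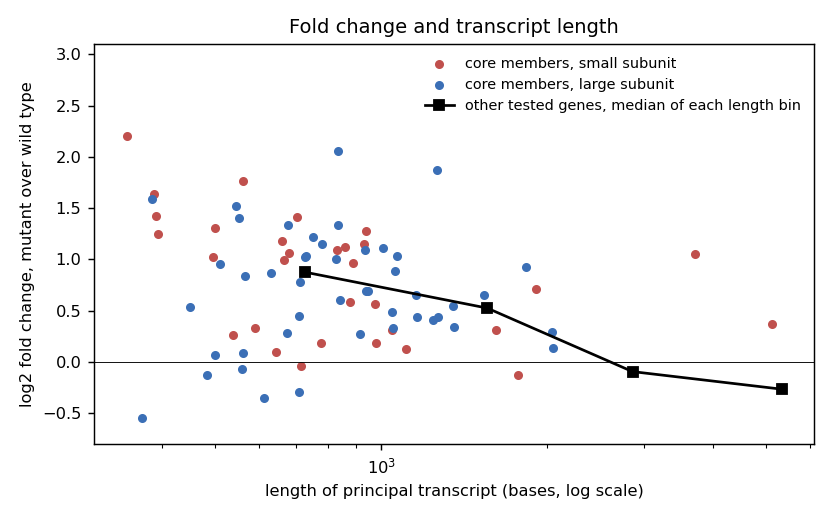
Log2 fold change (Tet2 mutant over wild type) of the 77 core genes against the length of the principal transcript in bases on a log scale, with the small subunit in red and the large subunit in blue. Black squares give the median of the other tested genes in 4 length classes, which goes from 0.88 under 1000 bases to -0.26 at 4000 bases or more.

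Markers of other cell types moved with genotype as well. For comparison, 10.6% of all tested genes were called higher. The 7 macrophage markers were all called higher, and summed to 244 to 309 CPM in the wild type and to 4245 and 3060 CPM in the mutant. The 9 T and NK cell markers summed to 266 to 348 CPM against 1540 and 2045 CPM, with 6 called higher. The 9 B cell markers summed to 166 to 749 CPM against 1057 and 8299 CPM, with 4 called higher, and the 6 markers of pancreatic acinar cells to 39.3 to 55.0 CPM against 441 and 1015 CPM, with 6 called higher. Erythroid markers, at 6004 to 16076 CPM against 13905 and 2034 CPM, and the cell cycle list, at 2488 to 3053 CPM against 1844 and 514 CPM, had 0 calls in either direction by edgeR. The erythroid sums overlapped. Of the 9 cell cycle genes 0 had a positive log2 fold change (median -1.39). For 8 of them both mutant libraries were below all wild-type libraries, against 33.3% of all tested genes. No marker of these lists was at 0 in both mutant libraries or in all wild-type libraries, and the part of the cell types in the levels of the ribosomal protein genes was not tested.

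The paralogues were set against their partners by the ratio of counts within each library, which does not depend on scaling. With 3 against 2 libraries the smallest two-sided p of an exact permutation test is 0.2, so no pair could pass the threshold, and 6 pairs had enough counts for the test. Rps27l, a p53-inducible copy of Rps27, had 227%, 355% and 339% of the counts of Rps27 in the wild type and 114% and 99.0% in the mutant. The mean log2 ratio was 1.59 ± 0.35 (SD, n = 3) and 0.09 ± 0.14 (SD, n = 2), a difference of -1.504 (exact permutation p = 0.2, adjusted over the 6 pairs 0.48), and the groups did not overlap. Rps27l itself was at 54.1, 95.6 and 83.7 CPM against 148 and 101 CPM and was not called (log2 fold change 0.67 ± 0.32, adjusted p = 0.16 by edgeR). Of its windows 22.4% were shared with another gene, against 98.6% for Rps27.

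Rpl22l1, the copy that can take the place of Rpl22 in developing blood cells, had 68.8%, 47.9% and 63.4% of the counts of Rpl22 in the wild type and 33% and 61.4% in the mutant (difference of log2 ratios -0.40, exact permutation p = 0.4). The groups overlapped, and the difference rested on Tet2-mutant replicate 2, without which it was 0.05. Rpl7l1 had 166%, 117% and 134% of the counts of Rpl7 against 194% and 165% (difference 0.38, exact permutation p = 0.4). By level Rpl7l1 was at 189, 216 and 238 CPM against 409.8 and 364 CPM, just short of a call (log2 fold change 0.85 ± 0.23, adjusted p = 0.0501 by edgeR). Rpl36al, whose symbol the rule does not match, had 100.4%, 89.7% and 87.4% of the counts of Rpl36a against 87.5% and 96.1%, and its groups overlapped (difference -0.01, exact permutation p = 1).

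Rpl3l, a form of Rpl3 typical of muscle, was close to absent, with 42, 63 and 26 counts in the wild type and 0 and 9 in the mutant. That made 0.325%, 0.349% and 0.2% of the counts of Rpl3 against 0% and 0.0499% (difference of log2 ratios -3.32, exact permutation p = 0.2), with 0.5 added to each count, and the size of the difference depends on that offset. The testis forms Rpl39l and Rpl10l had 9 and 5 counts over all libraries and were given no test. The pseudogenes Rpl32l (12, 25 and 14 counts against 0 and 1) and Rpl6l (37, 32 and 20 counts against 3 and 1) were low as well, and Rps12l1 had 0 counts in all 5 libraries. These raw counts are not scaled, and Tet2-mutant replicate 2 was the smallest library. On the CPM scale Rpl6l was at 0.496, 0.381 and 0.326 in the wild type against 0.238 and 0.0185 in the mutant.

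Several copies set wild-type replicate 3 apart from the other wild-type libraries, an observation made after the values had been seen and given with no test. Rps3a3 had 29 and 44 counts in wild-type replicates 1 and 2, and 2408 in wild-type replicate 3, with 333 and 1268 in the mutant. As a share of the counts of Rps3a1, from which it was copied, this was 0.358% and 0.254% against 33.7% in the wild type, and 14.4% and 16.3% in the mutant. Rps3a1 itself had 109, 206 and 117 CPM in the wild type against 183 and 144 CPM in the mutant. Rps3a2, a second copy, was at 0.321%, 0.359% and 3.72% of Rps3a1 in the wild type and at 0.864% and 3.74% in the mutant.

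The order was turned for Rps4l. It had 288, 414 and 13 counts in wild-type replicates 1, 2 and 3 and 8 and 6 in the mutant, which was 5.13%, 3.67% and 0.171% of the counts of Rps4x against 0.371% and 0.0702% (difference of log2 ratios -3.11, exact permutation p = 0.4). Wild-type replicates 1 and 2 were thus on 1 side for both genes, and wild-type replicate 3 lay with the mutant libraries. Rps4x had 75.3, 134 and 124 CPM in the wild type against 171 and 158 CPM in the mutant.

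Where the sequence sets these copies apart from their parents is shown by windows of 60 bases from the GENCODE M21 transcripts (GRCm38), 5′ to 3′. Capitals mark bases that differ from the parent. Each window was picked, within 1 coding exon, for the most differences between the parent and Rps3a3 or Rps4l. The windows therefore show more difference than the whole alignment, with 2 differing bases in Rps3a3, 1 in Rps3a2 and 19 in Rps4l.
Rps3a1, chr3:86141333-86141392, minus strand: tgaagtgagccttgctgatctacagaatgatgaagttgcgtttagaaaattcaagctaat
Rps3a3, chr13:108670803-108670862, plus strand: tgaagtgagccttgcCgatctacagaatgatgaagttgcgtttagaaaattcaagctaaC
Rps3a2, chr14:88123549-88123608, minus strand: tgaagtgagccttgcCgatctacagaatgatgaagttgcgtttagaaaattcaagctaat
Rps4x, chrX:102186413-102186472, minus strand: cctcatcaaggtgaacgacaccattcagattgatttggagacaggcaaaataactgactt
Rps4l, chr6:148355165-148355224, plus strand: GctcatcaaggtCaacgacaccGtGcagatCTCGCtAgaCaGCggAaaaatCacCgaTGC
Over the whole alignment Rps3a3 was identical to Rps3a1 in 98.9% of 795 bases (9 differences) and Rps3a2 in 99.5% of 792 (4 differences), so a read that holds none of these bases matches Rps3a1 as well. Rps4l was identical to Rps4x in 80.7% of 809 bases (156 differences).

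**Figure D5:**
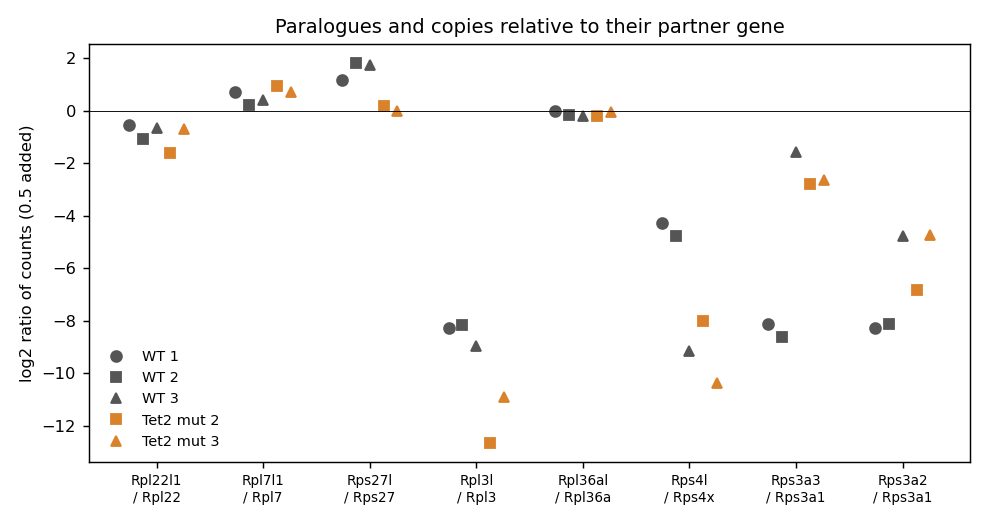
Log2 ratio of the counts of each paralogue or copy to those of its partner in each library (0.5 added to each count), wild type in grey and Tet2 mutant in orange, with symbols for the replicates. Rps27l over Rps27 is lower in both mutant libraries, and wild-type replicate 3 lies far from the other wild-type libraries for Rps4l, Rps3a3 and Rps3a2.

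Genes around the ribosome were counted in the same fit, in which 10.6% of all tested genes were called higher and 4.43% lower. In the list of nucleolar assembly factors and RNA polymerase I subunits, 8 of 54 (14.8%) were called higher and 0 lower, with a median log2 fold change of 0.28. Sbds, which releases Eif6 from the new large subunit and is mutated in Shwachman-Diamond syndrome, had a log2 fold change of 1.44 ± 0.26 (adjusted p = 0.0166). Nmd3, the adaptor that exports the large subunit, had 1.38 (adjusted p = 0.0224), Nop16 1.51 (adjusted p = 0.0275) and Ebna1bp2 1.06 (adjusted p = 0.0351). Nip7, Nop10, Eif6 and Brix1 were the other 4. Without any 1 of the wild-type libraries the calls of Nop16 (adjusted p = 0.053 to 0.097) and Ebna1bp2 (0.0678 to 0.0862) were lost. Of the chaperones that escort single ribosomal proteins, 5 of 6 were tested and 0 were called, with Bccip at an adjusted p of 0.0502.

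Of 15 other transcripts with a TOP motif 1 was called (Eif3h, log2 fold change 1.29, adjusted p = 0.0292), with a median of 0.37, and of 19 translation initiation factors 1 was called (Eif2s2, 1.11, adjusted p = 0.0446) with a median of 0.51. In the list of regulators 3 of 17 were called higher, namely Cdkn1a, Rheb, which switches on mTOR complex 1 (1.45, adjusted p = 0.0177), and Eif4ebp1, which mTOR restrains (1.24, adjusted p = 0.0355). It held 2 genes called lower. Tsc2, the brake on Rheb, had 39.95, 24.0 and 28.5 CPM in the wild type against 9.59 and 6.41 CPM in the mutant (log2 fold change -1.95, adjusted p = 0.033), and Max, the partner of Myc, had -1.70 (adjusted p = 0.0338), and without any 1 of the wild-type libraries both lost the call (adjusted p = 0.0972 to 0.139 for Tsc2 and 0.096 to 0.122 for Max). Without wild-type replicate 1 the calls of Cdkn1a (adjusted p = 0.054), Rheb (0.0672), Eif3h (0.0548) and Eif2s2 (0.0826) were lost too, and that of Eif2s2 also without replicate 2 (0.0824). Of the ribosomal proteins that the name pattern misses, Fau was at 34.7, 57.3 and 54.04 CPM against 97.5 and 73.3 CPM (adjusted p = 0.108) and Rack1 at 305, 436 and 445 CPM against 638 and 526 CPM (adjusted p = 0.163), and neither they nor Rpl36al were called.

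Of 16 ribosomal proteins mutated in Diamond-Blackfan anaemia 3 were called higher (Rps27, Rps19 and Rpl11) and 0 lower, a share of 18.75% beside 18.2% of the 77 core genes and 10.6% of all tested genes, with a median log2 fold change of 0.96. Rps26 of that list was at 19.1, 24.8 and 28.4 CPM against 40.2 and 60.3 CPM and Rps29 at 17.3, 21.6 and 23.5 CPM against 80.3 and 31.8 CPM, and neither passed the test. The ribosomal proteins of the mitochondrion, which share no subunit with the cytosolic ribosome, had 23 of 78 called higher and 0 lower, with a median of 0.94 beside 0.69 for the cytosolic genes. Mrpl42 had a log2 fold change of 1.85 (adjusted p = 0.00731) and Mrps34 of 1.89 (adjusted p = 0.0135). Their share of all counts was 0.312%, 0.436% and 0.407% in the wild type and 0.498% and 0.531% in the mutant, and unlike the share of the cytosolic genes it did not overlap between the groups.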

How the data were processed

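Gene counts, as the authors deposited them in 1 file per library, were the starting point. Per the submitters' processing notes, Trimmomatic was used for trimming and STAR for alignment to mm10. Tool versions, the read counter, the annotation and the strand setting were not given in the sources used here. Without the strand setting, reads from a gene and an overlapping antisense gene cannot be told apart. Per the labels' protocols, libraries were made from total RNA with a SMARTer mRNA-Seq kit, and no molecular identifiers are named.

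The whole count table was fitted with edgeR 4.0.16 in R 4.3.3. Genes were kept by filterByExpr, which left 17062, and scaled by TMM. The quasi-likelihood F-test compared the genotypes over all 5 libraries, with p-values adjusted by Benjamini-Hochberg across the 17062 genes and calls made under 0.05. The common biological coefficient of variation was 0.507, and SEs were obtained as the size of the log2 fold change over the square root of F. DESeq2 1.42.0, other scalings and filters, a replicate block and each library left out were alternatives. The test was tried on simulated data first. Paralogue ratios used counts plus 0.5 and an exact permutation test (scipy 1.17.1), for pairs with at least 10 counts in the paralogue.

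Positions, biotypes and transcript lengths (the APPRIS principal transcript) came from GENCODE M21 (GRCm38), which matched 16673 of the tested symbols, and promoters from RefSeq. The members and lists were chosen with earlier results of these data known. The genes named by rule were all paralogues of the pairs, the 6 members with the highest mean CPM, up to 12 called members with the smallest p, the 5 largest rises and 5 largest falls, and up to 4 called genes of each list (the 2 with the smallest p where none was called). All other genes named were chosen after their values were seen. Values of some genes are not reported here, though they are part of the counts, sums and medians.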

Additional observations from a re-analysis of the deposited data

How the results depend on the processing

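The 14 calls became 6 with library totals only, 24 with no filter, 4 with the replicate block, 27 with DESeq2's Wald test and 4 to 37 with 1 library left out, and stayed between 11 and 16 under the other settings. Over all genes, higher and lower calls went from 1801 and 755 to 3059 and 1498 with no filter, 752 and 232 with the replicate block and 2972 and 2137 with DESeq2. Members called lower in an alternative were Rpl32l, Rpl3l or Rpl6l. The median log2 fold change of 0.69 became 0.42 with upper-quartile scaling and 0.19 with library totals only, and ranged from 0.59 to 0.96 with 1 library left out. The small minus large difference of 0.31 was 0.25 with the replicate block and 0.08716 to 0.32 with 1 library left out. Among the genes named by rule the sign turned for Rplp0 (-0.16 with library totals only), Rpl22l1 (-0.35 to 0.006151 with 1 library left out, the latter without wild-type replicate 3) and Rpl36al (-0.999 to 0.46 with 1 library left out, with 0.27 without wild-type replicate 2, 0.22 without replicate 3 and 0.46 without Tet2-mutant replicate 2). The cause was not tested. Deviations from the group mean were close to uncorrelated between samples of the same number (r = -0.03 for number 2 and -0.02 for number 3). The deviations of the 2 mutant libraries are equal with opposite sign. Both values therefore rest on 1 mutant contrast and cannot exclude pairing. The numbers were not taken as pairs in the main test. The log2 ratio of summed shares, 0.27, ranged from 0.11 to 0.39 with 1 library left out, beside a spread between replicates of 0.28, as large as the ratio itself. With the replicate block 20 of the genes named by rule lost their call, among them Sbds (adjusted p = 0.0778), Nmd3 (0.13) and Mrps34 (0.111). Low counts limit Rpl39l, Rpl10l and the pseudogenes.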
